A study of Mus musculus with 6 samples.

Results

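Chromatin modifiers and remodellers were followed in visceral adipose tissue of mice that lack nuclear myosin 1 (NM1 KO) and of wild-type mice (WT). The set was built from gene symbols: autosomal protein-coding genes of the GENCODE M21 annotation (GRCm38) whose symbol starts with Kmt, Kdm, Setd, Hdac, Kat or Brd and a digit, with Chd and a digit, or with Smarc or Arid. Of 94 symbols that fit on any chromosome, 6 lie on a sex chromosome (Hdac6, Hdac8, Kdm5c, Kdm5d, Kdm6a and Smarca1) and 2 were left out by name (Smarca5 and Kat2b), which left 86 members. Counts were used for 85 of them, out of 46603 identifiers in each table. The remaining member, Brd3os, shares the start of its symbol with the bromodomain genes without being one, its identifier had no match among those used, and it was not analysed here. A filter on low counts left 83 members among 15828 genes tested. The other 2, Arid3c and Kdm4d, averaged at most 0.115 counts per 1000000 counts (CPM) in NM1 KO and at most 0.0907 CPM in WT.

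RNA was taken from abdominal fat of untreated C57/Bl6 mice aged 18 months, with 3 libraries from NM1 KO mice and 3 from WT mice. Nuclear myosin 1 is a nuclear isoform of the motor protein encoded by Myo1c, and it is known for roles in transcription and in chromatin organization. The sources used here give neither how the allele was made nor the sex of the mice. The labels number the replicates without saying that each is a separate animal, so p-values measure only how far these samples spread, which may be technical variation. Total counts were 31211682, 33537818 and 27525446 in NM1 KO replicates 1 to 3, and 26705606, 31228723 and 24677758 in WT replicates 1 to 3. Myo1c, which also encodes the other isoforms of the motor and so cannot show the loss of the nuclear one on a whole-gene count, had a log2 fold change of -0.47 ± 0.17 (SE) and did not pass the test (adjusted p = 0.151). Markers of fat cells were abundant: the 8 on the adipocyte list summed to 19672, 23786 and 20500 CPM in NM1 KO and to 22098, 22331 and 20844 CPM in WT. A gene is called here when its adjusted p in edgeR's quasi-likelihood test is under 0.05. Of the 8, edgeR called 0 (2 had an unadjusted p under 0.05), DESeq2 2 and limma-voom 1. These 2 had fold changes of opposite sign on the log2 scale (NM1 KO over WT): Lep 1.16 ± 0.31 (adjusted p = 0.0805) and Retn -1.24 ± 0.35 (adjusted p = 0.0937). Over the list 2 fold changes were positive and 6 negative, with a median of -0.22, so the sums do not show that each marker was unchanged. Replicate 2 of NM1 KO stood apart from the other NM1 KO libraries among members of low GC content, and values without it are given where they bear on a call.

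DNA in the nucleus is wrapped around histones, and these gene families set how open that packing is. Methyltransferases (Kmt, Setd) and acetyltransferases (Kat) write marks on histone tails, demethylases (Kdm) and deacetylases (Hdac) remove them, bromodomain proteins (Brd) bind acetylated lysines, and ATP-driven remodellers (Smarc and Arid subunits of SWI/SNF, and Chd proteins) slide or evict nucleosomes. In fat, Kmt2d and its paralog Kmt2c methylate histone H3 at enhancers and are required for adipocyte differentiation in mouse cells, while Hdac9 holds that differentiation back.

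The Kmt2 genes are shown as close relatives that differ in base composition, the property along which the fold changes of the whole set were ordered. The last 120 coding bases of the 4 large paralogs, which end in the stop codon and encode the end of the catalytic SET region, follow in 5′ to 3′ order from the GENCODE M21 transcripts (GRCm38), with G and C in capitals. They lie on the minus strand, at chr9:44807902-44808021 (Kmt2a), chr7:30569161-30569280 (Kmt2b), chr5:25273666-25275654 (Kmt2c, across 2 exons) and chr15:98834500-98834742 (Kmt2d, across 2 exons).
Kmt2a: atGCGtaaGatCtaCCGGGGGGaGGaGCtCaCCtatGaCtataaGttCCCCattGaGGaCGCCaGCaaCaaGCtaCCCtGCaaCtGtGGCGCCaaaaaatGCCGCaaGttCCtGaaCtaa
Kmt2b: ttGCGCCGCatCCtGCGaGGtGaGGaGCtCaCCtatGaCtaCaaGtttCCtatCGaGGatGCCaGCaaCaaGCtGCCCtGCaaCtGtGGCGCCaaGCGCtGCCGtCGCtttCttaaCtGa
Kmt2c: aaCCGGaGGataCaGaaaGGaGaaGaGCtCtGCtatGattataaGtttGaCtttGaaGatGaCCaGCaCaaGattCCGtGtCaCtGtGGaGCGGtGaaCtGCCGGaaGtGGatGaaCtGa
Kmt2d: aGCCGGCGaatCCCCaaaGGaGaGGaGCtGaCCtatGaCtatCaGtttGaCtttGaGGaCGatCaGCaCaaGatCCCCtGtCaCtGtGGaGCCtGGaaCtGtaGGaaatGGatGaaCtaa
Kmt2c and Kmt2d were identical at 80.0% of these positions, and Kmt2a and Kmt2b at 77.5%. Of these 120 bases 56 were G or C in Kmt2c against 60 in Kmt2d, and 62 in Kmt2a against 68 in Kmt2b, so by this stretch alone Kmt2d is not richer in G and C than Kmt2a. Over the whole coding sequence the GC content was 47.3% in Kmt2c against 59.4% in Kmt2d, and 52.4% in Kmt2a against 59.2% in Kmt2b. At the third position of codons it was 39.8% in Kmt2c and 59.9% in Kmt2d.

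Among the 83 tested members, 1 was higher in NM1 KO (Arid5b) and 2 were lower (Kmt2d and Hdac10) at an adjusted p under 0.05 in edgeR's quasi-likelihood test. Over all genes tested, 4.25% were called, 2.79% as higher and 1.47% as lower. By this test the members, at 3.61%, were not called more often than genes at large, unlike by the other tools below. Log2 fold changes (NM1 KO over WT) were positive for 47 members and negative for 36, with a median of 0.043 against -0.0021 over all genes tested. They ran from -0.80 (Arid5a) to 0.88 (Hdac9), no member differed by 2-fold, and 11 differed by more than 1.5-fold. The median size of the fold change was 0.21 on the log2 scale against 0.27 over all genes tested. The CPM of the 3 NM1 KO libraries lay entirely above those of WT for 15 members and entirely below for 13. Over all genes tested the groups did not overlap for 29.9%, 14.9% above and 15.0% below, close to the 33.7% of the members. At an unadjusted p under 0.05 there were 14 higher and 12 lower members, 31.3% of the 83, against 23.7% of all genes tested (13.0% higher and 10.8% lower). Other tools called more members along with more genes: DESeq2 called 22.9% of the members against 14.2% of all genes it tested, and limma-voom with quality weights 18.1% against 10.1%. The counts given for each family and list are to be read beside these shares of all genes (4.25% for edgeR, 23.7% at an unadjusted p under 0.05, 14.2% for DESeq2 and 10.1% for limma-voom). With a correction for the trend of each library along GC content and exonic length, 0 members were higher and 2 lower (Kmt2d and Hdac7), against 5.04% of all genes called (3.05% higher and 1.99% lower).

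**Figure D1:**
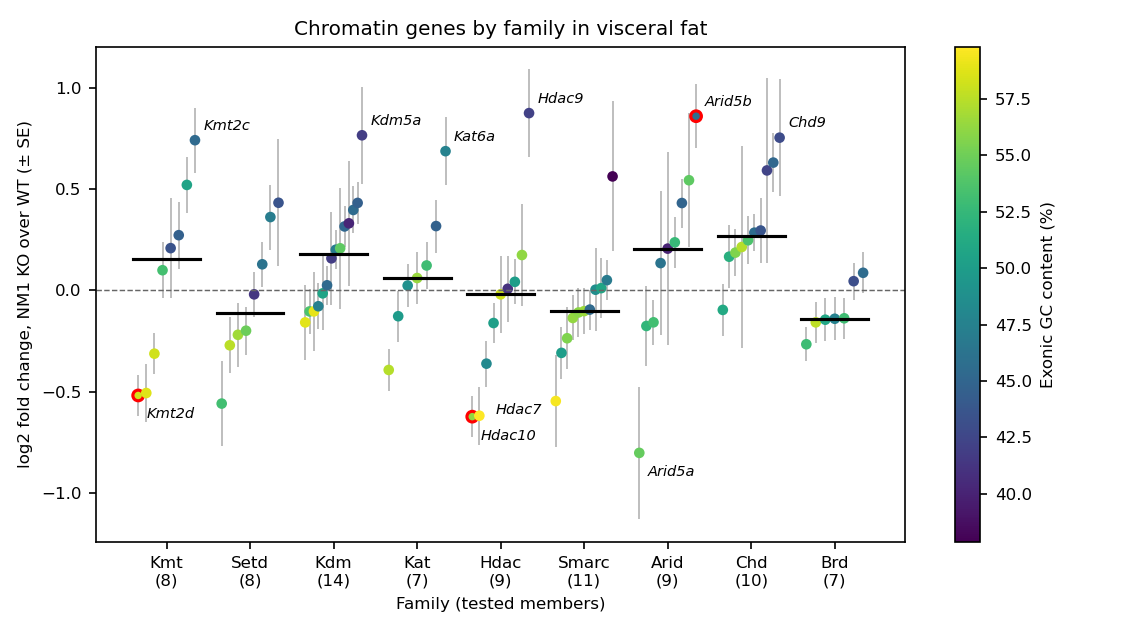
Log2 fold change (NM1 KO over WT, vertical axis) of each of the 83 tested members by family. Points are genes coloured by the GC content of their exons, grey lines are ± 1 SE, black bars are family medians and red rings mark the 3 members called at an adjusted p under 0.05. In the Kmt family the fold changes span -0.52 (Kmt2d) to 0.74 (Kmt2c).

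Kmt2d, which places the enhancer mark of single methylation on histone H3, was the only member called among the methyltransferases, as lower. It had 121, 132 and 119.8 CPM in NM1 KO libraries 1 to 3, against 191, 169 and 173 CPM in WT libraries 1 to 3. Each NM1 KO library was below each WT library. The mean was 124 ± 6.94 CPM in NM1 KO and 178 ± 11.9 CPM in WT (SD, n = 3 each), a log2 fold change of -0.52 ± 0.10 (SE; adjusted p = 0.0388). The gene lies on chromosome 15 (chr15:98831669-98871204, minus strand, GRCm38), and its exons hold 58.3% G and C. With the trends of each library along GC content and exonic length removed (below, the GC and length trend), the log2 fold change was -0.56 (adjusted p = 0.0200).

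Kmt2c, the paralog that shares the enhancer role, had a fold change of opposite sign, which did not pass the test. It had 81.2, 61.5 and 85.2 CPM in NM1 KO and 52.3, 40.9 and 43.1 CPM in WT. The groups did not overlap. The log2 fold change was 0.74 ± 0.16 (adjusted p = 0.0507), or 0.36 once the GC and length trend was removed (adjusted p = 0.117). The number of Kmt2c counts per Kmt2d count was 0.674, 0.465 and 0.711 in NM1 KO, against 0.273, 0.242 and 0.249 in WT. This ratio, computed within each library and so free of any scaling between libraries, was 1.25 higher in NM1 KO on the log2 scale, and 0.93 higher with the GC and length trend removed. The pair was chosen after its values were seen, so these ratios are given without a test.

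The Kmt2 paralogs that act mostly at promoters also had fold changes of opposite sign. Kmt2a, the founding MLL gene, had 101.4, 86.3 and 95.9 CPM in NM1 KO against 72.3, 54.5 and 70.8 CPM in WT (log2 fold change 0.52 ± 0.14, adjusted p = 0.0786). Kmt2b had 70.1, 76.2 and 68.0 CPM in NM1 KO against 95.4, 87.6 and 82.9 CPM in WT (-0.31 ± 0.10, adjusted p = 0.126). Neither gene passed the test and neither overlapped between the groups. Kmt2a counts per Kmt2b count were 1.45, 1.13 and 1.41 in NM1 KO and 0.758, 0.622 and 0.855 in WT. On the log2 scale the ratio was 0.84 higher in NM1 KO, and 0.59 higher with the trend removed, in a pair again chosen after its values were seen.

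**Figure D2:**
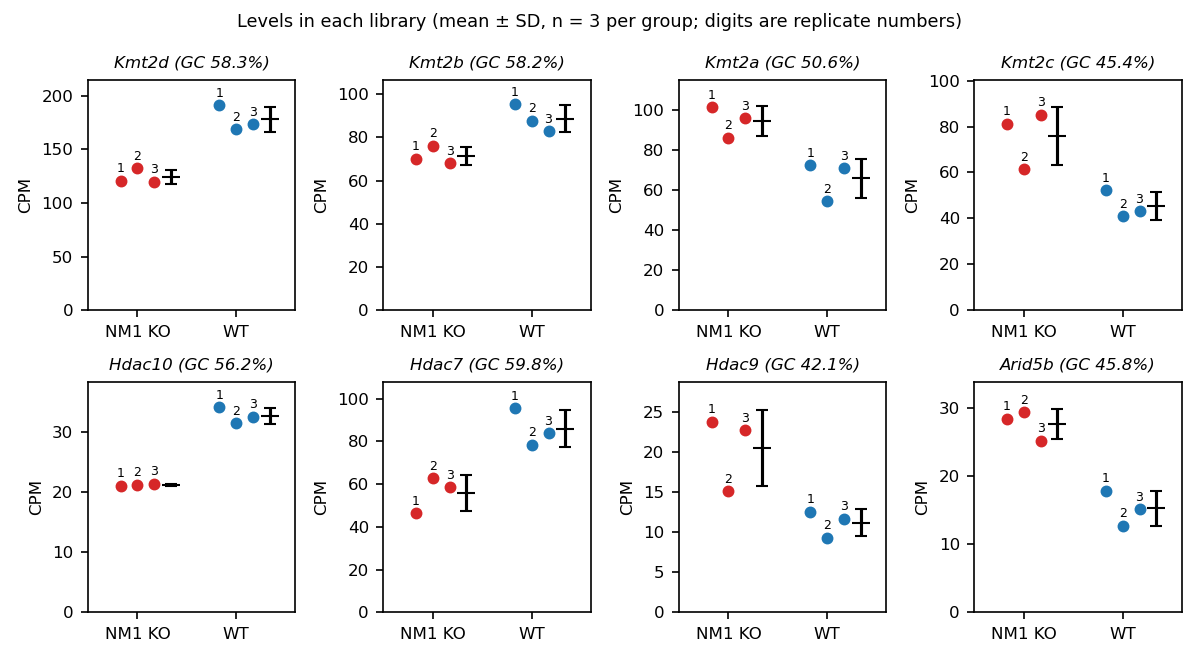
CPM (vertical axes, from 0) of 8 members in each of the 6 libraries, NM1 KO in red left of WT in blue, with replicate numbers and the mean ± SD of each group (n = 3). Kmt2d and Kmt2b, with about 58% GC, are lower in every NM1 KO library than in any WT library, and Kmt2a and Kmt2c are higher. For Hdac9 and Kmt2c, NM1 KO replicate 2 lies nearest to WT.

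Of the other Kmt genes, Kmt5c, which adds the last methyl groups to lysine 20 of histone H4, had 22.7, 24.0 and 25.4 CPM in NM1 KO and 38.9, 28.5 and 35.1 CPM in WT (-0.51 ± 0.14, adjusted p = 0.0887). Kmt5a, which adds the first methyl group to that lysine and was the Kmt gene with the highest level per kb of exon (21.6 CPM per kb in NM1 KO and 20.2 in WT), had a log2 fold change of 0.10 ± 0.14. Over the 8 Kmt genes 1 was called, as lower, and the median fold change was 0.15, which turned to -0.12 with the GC and length trend removed. At an unadjusted p under 0.05, 2 Kmt genes were higher and 3 lower. DESeq2 called 4 Kmt genes (2 higher and 2 lower) and limma-voom 4, where they called 14.2% and 10.1% of all genes. Partners of these enzymes were examined too: of 10 listed subunits of the H3K4 methyltransferase complexes 9 were tested, edgeR called 0 (4 had an unadjusted p under 0.05), DESeq2 3 and limma-voom 3, and the median was -0.10 (-0.19 with the trend removed). Ncoa6, a subunit found with Kmt2c and Kmt2d, had the smallest p among them (0.49 ± 0.12, adjusted p = 0.0669), followed by Cxxc1, a subunit found with the Setd1 enzymes (-0.38 ± 0.10, adjusted p = 0.0783).

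Of the 8 Setd genes edgeR called 0 (1 had an unadjusted p under 0.05), DESeq2 0 and limma-voom 0, and their median log2 fold change was -0.11 (-0.097 with the GC and length trend removed). Setd4 had the smallest p and the most negative value, at a low level of 3.60, 3.08 and 3.39 CPM in NM1 KO against 4.58, 5.40 and 4.85 CPM in WT (-0.56 ± 0.21, adjusted p = 0.165). Setd2, which trimethylates lysine 36 of histone H3 behind elongating RNA polymerase, had 86.7, 33.1 and 64.2 CPM in NM1 KO and 43.9, 43.5 and 48.9 CPM in WT. Its NM1 KO libraries lay on both sides of all WT libraries, with replicate 2 as the lowest of the 6 and replicate 1 as the highest. Setd3, which methylates a histidine of actin rather than a histone, was the Setd gene with the highest level per kb, and its log2 fold change was 0.13 ± 0.11 (adjusted p = 0.524).

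Of 15 demethylase genes 14 were tested, of which edgeR called 0 (4 had an unadjusted p under 0.05), DESeq2 4 and limma-voom 3. Over all genes 23.7% had an unadjusted p under 0.05, DESeq2 called 14.2% and limma-voom 10.1%. The NM1 KO libraries of 5 lay entirely above WT and of 0 entirely below, where 14.9% and 15.0% of all genes tested did. The median log2 fold change of 0.18 became -0.026 with the GC and length trend removed. Kdm3a, a demethylase of lysine 9 of histone H3 whose loss makes mice obese, had 31.5, 29.6 and 30.6 CPM in NM1 KO and 23.3, 21.8 and 22.8 CPM in WT. The groups were well apart relative to their spread, with a log2 fold change of 0.43 ± 0.10 and an adjusted p of 0.0616, which with the trend removed were 0.18 and 0.329. Kdm5a, which strips the promoter mark that Kmt2a and Kmt2b write, had 79.9, 41.1 and 73.3 CPM in NM1 KO against 36.1, 37.9 and 40.3 CPM in WT. Replicate 2 of NM1 KO exceeded the highest WT library by little, and the log2 fold change of 0.77 ± 0.24 did not pass (adjusted p = 0.115). Its paralog Kdm5b had 43.5, 47.2 and 46.8 CPM in NM1 KO and 39.0, 34.8 and 36.6 CPM in WT (0.32 ± 0.10, adjusted p = 0.118). Kdm4a and Kdm4b, which act on lysines 9 and 36 of histone H3, had log2 fold changes of -0.10 and -0.16, and that of Kdm4b turned positive (0.048) with the trend removed.

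Of the 7 acetyltransferases edgeR called 0 (3 had an unadjusted p under 0.05), DESeq2 2 and limma-voom 1, with a median log2 fold change of 0.062 (-0.018 with the GC and length trend removed). Kat6a, a MYST acetyltransferase of histone H3, had 73.8, 54.7 and 82.1 CPM in NM1 KO against 43.0, 39.5 and 48.2 CPM in WT. All NM1 KO libraries exceeded all WT libraries, and its fold change was 0.69 on the log2 scale ± 0.17 (adjusted p = 0.0659; 0.49 and 0.127 with the trend removed). Kat2a (GCN5), the acetyltransferase of SAGA-type coactivators, had 30.7, 33.9 and 34.8 CPM in NM1 KO and 41.8, 45.3 and 43.2 CPM in WT (-0.39 ± 0.10, adjusted p = 0.0779). Kat7 (HBO1), an acetyltransferase known from replication origins, had the highest level per kb of the family and a log2 fold change of 0.024, which turned to -0.018 with the trend removed. Among 14 other acetyltransferases and coactivators, Ncoa2, a steroid receptor coactivator with a role in fat storage in mice, was called: it had 71.3, 63.2 and 72.8 CPM in NM1 KO and 45.6, 37.8 and 39.9 CPM in WT (0.75 ± 0.12, adjusted p = 0.0258; 0.47 and 0.0403 with the trend removed). The other 13 were not called, and the list's median was 0.049.

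Hdac10 fell, with the smallest p among the members. This class IIb enzyme is best known as a deacetylase of polyamines, not of histones. It had 21.1, 21.3 and 21.4 CPM in NM1 KO and 34.2, 31.5 and 32.6 CPM in WT, so the NM1 KO libraries lay within 0.3 CPM of each other and far below WT. The log2 fold change was -0.62 ± 0.10 (adjusted p = 0.0277). Removal of the GC and length trend left -0.43 and ended the call (adjusted p = 0.0649). The gene lies at chr15:89123307-89128700, and its exons hold 56.2% G and C.

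Hdac7 and Hdac9, class IIa deacetylases that bind MEF2 transcription factors, had fold changes of opposite sign. Hdac7, which keeps vessel walls intact in mouse embryos, had 46.4, 62.9 and 58.5 CPM in NM1 KO against 95.5, 78.5 and 83.8 CPM in WT (-0.62 ± 0.14, adjusted p = 0.0594), and it was called as lower with the GC and length trend removed (-0.47, adjusted p = 0.0484). Of 8 vascular endothelium markers 5 were called as lower, with summed levels of 347, 525 and 493 CPM in NM1 KO and 1080.3, 894 and 856 CPM in WT, and none was at 0; their part in the level of Hdac7 was not tested. In bulk tissue, fewer cells of a type and less RNA per cell cannot be told apart. Hdac9 had 23.8, 15.1 and 22.7 CPM in NM1 KO and 12.6, 9.29 and 11.7 CPM in WT. Its log2 fold change of 0.88 ± 0.22 was the most positive of all members, and it did not pass (adjusted p = 0.0670; 0.46 and 0.0965 with the trend removed). Counts of Hdac9 per count of Hdac7 were 0.511, 0.240 and 0.388 in NM1 KO and 0.132, 0.118 and 0.140 in WT, a log2 difference of 1.48 (0.94 with the trend removed) in a pair chosen after its values were seen.

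Hdac3, the catalytic subunit of the NCoR corepressor complex, had 51.5, 65.3 and 56.4 CPM in NM1 KO and 75.7, 75.0 and 71.8 CPM in WT. The groups did not overlap, and the log2 fold change of -0.36 ± 0.11 did not pass (adjusted p = 0.118; -0.39 and 0.0618 with the trend removed). Over the 9 deacetylases 0 were called as higher and 1 as lower, and the median was -0.019, or -0.17 with the trend removed. At an unadjusted p under 0.05, 1 was higher and 3 were lower. DESeq2 called 4 (1 higher and 3 lower) and limma-voom 4, where they called 14.2% and 10.1% of all genes. Of 18 corepressor partners (NCoR, Sin3, CoREST and related subunits) edgeR called 0 (3 had an unadjusted p under 0.05), DESeq2 3 and limma-voom 0. Those with the smallest p were Rcor1, the CoREST scaffold (0.45 ± 0.12, adjusted p = 0.0778), and Gps2, a subunit of the NCoR complex (-0.36 ± 0.11, adjusted p = 0.104). Of 7 sirtuins, the NAD-dependent deacetylases, Sirt6 was called as lower: it had 10.03, 11.1 and 10.9 CPM in NM1 KO and 18.7, 16.5 and 17.6 CPM in WT (-0.72 ± 0.13, adjusted p = 0.0342), and the call was lost with the trend removed (-0.50, adjusted p = 0.0666). Sirt7, a nucleolar sirtuin, was next by p and not called (-0.27 ± 0.10, adjusted p = 0.153).

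The Smarc genes, which encode ATPases and core subunits of the SWI/SNF complex, numbered 11, of which edgeR called 0 (2 had an unadjusted p under 0.05), DESeq2 0 and limma-voom 0. Their median log2 fold change was -0.10 (-0.094 with the GC and length trend removed). The ATPase genes had overlapping groups: Smarca4 (BRG1) had 126, 131 and 126 CPM in NM1 KO and 142, 154 and 117 CPM in WT, and Smarca2 (BRM) had 150.2, 115 and 153 CPM in NM1 KO and 168, 102 and 147 CPM in WT. Smarcc2, a scaffold subunit, had the highest level per kb of all members, with 56.9 CPM per kb in NM1 KO and 67.04 in WT, and its log2 fold change was -0.24 ± 0.15 (adjusted p = 0.396). Smarcd3, the BAF60c subunit, had the most negative value (-0.55 ± 0.23, adjusted p = 0.198), but 48.2% of its exonic bases are shared with another gene, so its count is uncertain. Smarcad1, a helicase outside SWI/SNF and the member with the lowest GC content (37.9%), had 32.0, 10.2 and 22.9 CPM in NM1 KO and 13.9, 14.9 and 15.2 CPM in WT. Its NM1 KO libraries lay on both sides of WT. Of 12 further SWI/SNF subunits outside the symbol rule edgeR called 0 (1 had an unadjusted p under 0.05), DESeq2 0 and limma-voom 0, and 10 had negative fold changes (median -0.15, and -0.16 with the trend removed).

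Arid5b was the only member called as higher. It encodes an AT-rich DNA-binding protein that works with the demethylase Phf2, and mice without it are lean. It had 28.4, 29.4 and 25.2 CPM in NM1 KO and 17.9, 12.7 and 15.2 CPM in WT, with each NM1 KO library above each WT library. The mean was 27.7 ± 2.17 CPM in NM1 KO and 15.3 ± 2.59 CPM in WT (SD, n = 3 each), a log2 fold change of 0.86 ± 0.16 (adjusted p = 0.0342). The call was lost with the GC and length trend removed, at 0.60 (adjusted p = 0.0641). The gene lies at chr10:68092520-68278740 on the minus strand, and its exons hold 45.8% G and C. Its paralog Arid5a, which binds and stabilizes inflammatory mRNAs such as that of Il6, had 15.4, 12.9 and 13.9 CPM in NM1 KO and 15.4, 38.4 and 19.7 CPM in WT. That difference (-0.80 ± 0.33, adjusted p = 0.196) was widest through WT replicate 2, and without that library it was -0.32.

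Promoters of Kmt2d and Arid5b, members called in opposite directions, are shown because they differ in composition as their exons do. The windows of 300 bases span the start of the gene (RefSeq, GRCm38.p6), at chr15:98871156-98871455 and chr10:68278677-68278976, both on the minus strand and written 5′ to 3′. Capitals mark the GC box, GGGCGG or CCGCCC, to which Sp1-type factors can bind.
Kmt2d: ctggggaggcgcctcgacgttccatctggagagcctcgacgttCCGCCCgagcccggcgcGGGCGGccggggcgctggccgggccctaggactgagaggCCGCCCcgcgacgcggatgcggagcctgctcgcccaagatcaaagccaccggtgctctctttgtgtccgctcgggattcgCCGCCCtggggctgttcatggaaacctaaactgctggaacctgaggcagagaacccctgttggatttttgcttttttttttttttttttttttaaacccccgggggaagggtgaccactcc
Arid5b: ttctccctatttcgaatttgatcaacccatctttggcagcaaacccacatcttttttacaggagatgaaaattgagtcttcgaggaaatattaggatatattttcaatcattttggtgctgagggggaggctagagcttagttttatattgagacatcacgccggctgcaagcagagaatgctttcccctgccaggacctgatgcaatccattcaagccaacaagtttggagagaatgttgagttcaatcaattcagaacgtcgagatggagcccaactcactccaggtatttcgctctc
The Kmt2d window holds 27 CG dinucleotides and 4 GC boxes, and that of Arid5b holds 7 and 0. Over both strands, 35.7% of 32851 promoter windows hold a GC box, and the median number of CG dinucleotides is 7. For 63 of the members with counts there were 89 windows, of which 70.8% hold a GC box, with a median of 27 CG dinucleotides. The 32851 windows were not limited to the genes tested here, so these shares do not compare like sets. A match is a match of letters and does not show that a factor binds there. Hdac10 had no entry.

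Of the other Arid genes, the SWI/SNF subunits Arid1a, Arid1b and Arid2 had log2 fold changes of -0.16, 0.24 and 0.43, of which only that of Arid2 came with groups that did not overlap (46.2, 36.7 and 42.4 CPM in NM1 KO against 32.2, 29.2 and 31.5 CPM in WT; adjusted p = 0.0901). Arid4a and Arid4b, subunits of the Sin3 corepressor complex, split the NM1 KO libraries. Arid4b had 49.6, 10.5 and 31.1 CPM in NM1 KO and 26.5, 24.2 and 28.3 CPM in WT. Over the 9 tested Arid genes the median was 0.21, and 0.018 with the GC and length trend removed. Of these 9, edgeR called 1 (2 higher and 1 lower had an unadjusted p under 0.05), DESeq2 2 and limma-voom 2.

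The Chd family had positive fold changes for 9 of 10 members and a median of 0.27, which was 0.22 with the GC and length trend removed and 0.036 with the length trend alone removed. Of the 10, edgeR called 0 (3 had an unadjusted p under 0.05), DESeq2 2 and limma-voom 1. Chd6 had 53.5, 42.0 and 47.1 CPM in NM1 KO and 31.3, 26.3 and 34.4 CPM in WT (0.63 ± 0.14, adjusted p = 0.0583; 0.26 and 0.200 with the trend removed). Chd4, the main ATPase of the NuRD complex, had the highest level per kb of the family and 374, 357 and 322 CPM in NM1 KO against 322, 269 and 297 CPM in WT. Its lowest NM1 KO library lay just above its highest WT library, with a log2 fold change of 0.25 ± 0.12 (adjusted p = 0.252). Chd8, known for its link to neurodevelopment in humans, had 85.7, 86.7 and 90.0 CPM in NM1 KO and 75.2, 67.5 and 72.6 CPM in WT (0.29 ± 0.09, adjusted p = 0.122), which became -0.06 with the trend removed. Chd9 had 65.98, 27.7 and 50.9 CPM in NM1 KO and 30.3, 26.5 and 28.9 CPM in WT, so that NM1 KO replicate 2 lay within the WT range while the other NM1 KO libraries lay above it. Chd1, a remodeller of transcribed genes, was lower in NM1 KO replicate 2 than in any WT library, with 71.6, 16.7 and 37.1 CPM in NM1 KO and 30.7, 25.7 and 26.7 CPM in WT. The 1 negative member, Chd1l, had a log2 fold change of -0.10 ± 0.13.

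Of the bromodomain genes 7 were tested, of which edgeR called 0 (1 had an unadjusted p under 0.05), DESeq2 1 and limma-voom 0, with a median log2 fold change of -0.14 (-0.21 with the GC and length trend removed). The BET genes Brd2 and Brd3, whose products read acetylated chromatin, had log2 fold changes of -0.16 and -0.14. Brd2, with the highest level per kb of the family at 26.9 CPM per kb in NM1 KO and 30.0 in WT, had 208, 226 and 197 CPM in NM1 KO and 226, 229 and 249 CPM in WT. Brd7, a subunit of the PBAF form of SWI/SNF, had 0.086 and Brd8, a subunit of the Tip60 complex, 0.048.

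Across the 83 members, log2 fold changes followed base composition: the Spearman coefficient with exonic GC content was -0.66, with exonic length 0.47, and between GC content and length -0.46 (descriptions across genes, which share the 6 libraries and are not independent). The coefficient with GC content was negative in each of the 9 families, from -0.76 in Kmt to -0.38 in Arid. Over 13933 protein-coding genes it was -0.39. The 28 members with 37.9 to 46.2% GC had a median log2 fold change of 0.32, with 26 positive, and 11 of them (39.3%) lay entirely above WT and 0 below. The 4318 protein-coding genes in that range had a median of 0.20. Among these 73.0% were positive, against 92.9% of the members, and 23.1% lay entirely above WT and 4.24% below. The comparison genes were matched on GC content and not on length. The members in that range had a median exonic length of 12.0 kb, against 4.4 kb over all tested protein-coding genes. The 28 members with 53.2 to 59.8% GC had a median of -0.15, with 20 negative, and 1 (3.57%) lay entirely above WT and 9 (32.1%) below. The 3768 protein-coding genes in that range had a median of -0.16. Among these 31.3% were positive, against 28.6% of the members, and 7.67% lay entirely above WT and 25.96% below. With the GC and length trend removed the medians of these groups of members were -0.040 and -0.0030.

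**Figure D3:**
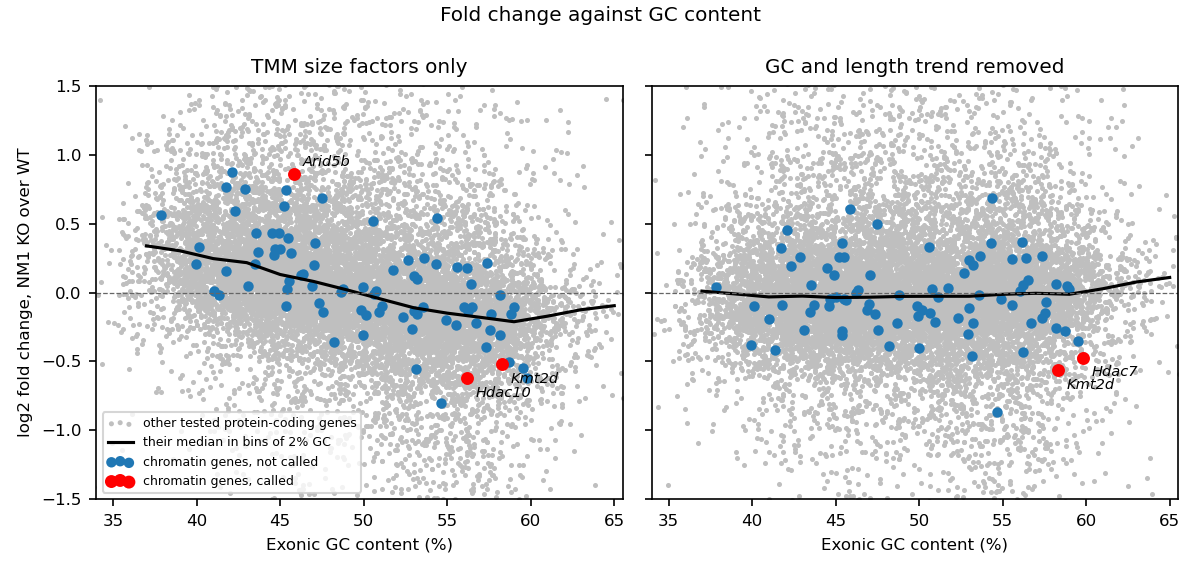
Log2 fold change (NM1 KO over WT) against exonic GC content, with TMM size factors only on the left and with each library's GC and length trend removed on the right. Grey points are other tested protein-coding genes, the black line is their median in bins of 2% GC, blue points are chromatin genes and red points those called at an adjusted p under 0.05. The Spearman coefficient over the 83 members is -0.66 on the left and -0.097 on the right.

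The pattern differed between the NM1 KO libraries. Against the WT mean, the median of the 28 members of lowest GC content was 0.50, 0.0073 and 0.36 in NM1 KO replicates 1 to 3, and that of the 28 of highest GC content was -0.20, -0.0072 and -0.22. By these medians replicate 2 of NM1 KO lay near the WT mean, but single members of low GC content did not. In replicate 2 Setd2, Smarcad1, Arid4b and Chd1 were below every WT library, while Hdac9 and Kdm5a were above every WT library. The Spearman coefficient between a member's deviation from the mean of the 6 libraries and its GC content was -0.69, 0.30 and -0.78 in NM1 KO replicates 1 to 3 and 0.72, 0.41 and 0.41 in WT replicates 1 to 3. Such deviations cancel over the 6 libraries, so a negative coefficient in some libraries pushes the others up. In 14 members NM1 KO replicate 2 was more than 0.5 below the mean of the other NM1 KO libraries on the log2 scale (Kmt2e, Kmt5b, Setd2, Kdm4c, Kdm5a, Kdm7a, Kat6a, Hdac2, Hdac9, Smarcad1, Arid4a, Arid4b, Chd1 and Chd9), and their median GC content was 42.2%, against 50.2% over the tested members. Over the members the median of this difference was 0.013, so replicate 2 was not low across the whole set. The number of members with replicate 2 as far above, and the share over all genes, are not given here.

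**Figure D4:**
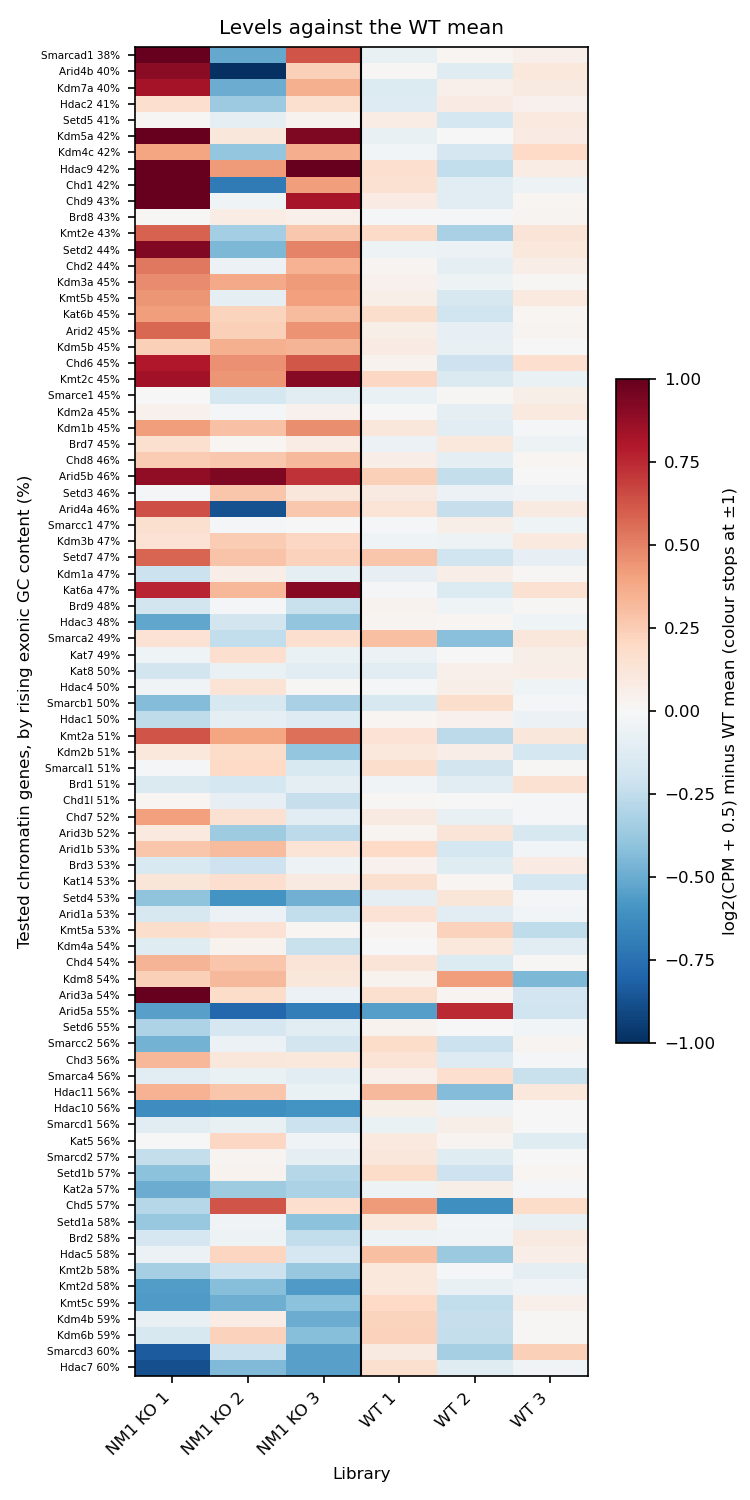
Log2(CPM + 0.5) minus the WT mean in each library (columns, NM1 KO left of WT) for 82 of the tested members (rows, from the lowest exonic GC content at the top, 37.9%, to the highest at the bottom, 59.8%). Colours stop at ± 1. Rows near the top are red in NM1 KO replicates 1 and 3 and pale or blue in replicate 2, while Kmt2d, Hdac10 and Arid5b keep 1 colour in all 3 NM1 KO libraries.

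Other chromatin genes were examined beside the families. For comparison, 23.7% of all genes had an unadjusted p under 0.05, and edgeR called 4.25%, DESeq2 14.2% and limma-voom 10.1%. Of 25 Polycomb subunits and partners (12 positive, 13 negative, median -0.10) edgeR called 0 (7 had an unadjusted p under 0.05), DESeq2 5 and limma-voom 3. Of 14 other lysine methyltransferases edgeR called 0 (3 had an unadjusted p under 0.05), DESeq2 1 and limma-voom 2. Of 12 other remodelling ATPases and partners edgeR called 0 (2 had an unadjusted p under 0.05), DESeq2 0 and limma-voom 0. Of 10 genes that write or erase DNA methylation edgeR called 0 (4 had an unadjusted p under 0.05), DESeq2 1 and limma-voom 0. In that last list 8 of 10 fold changes were positive, with a median of 0.27, and 0.19 with the GC and length trend removed. Its smallest p belonged to Dnmt3a, a de novo DNA methyltransferase, with 113, 97.8 and 83.3 CPM in NM1 KO and 80.7, 58.7 and 64.6 CPM in WT (0.53 ± 0.16, adjusted p = 0.113). Ring1, a Polycomb ubiquitin ligase, had 28.2, 32.0 and 27.96 CPM in NM1 KO and 38.1, 41.5 and 43.2 CPM in WT (-0.48 ± 0.11, adjusted p = 0.0599), and Phf1, a Polycomb partner, had -0.43 ± 0.13 (adjusted p = 0.107).

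Markers of other cells moved with genotype. Of 9 macrophage markers 6 were called as higher, with summed levels of 5795, 4594 and 4085 CPM in NM1 KO and 2372, 1792 and 2335 CPM in WT. Of 7 stromal progenitor markers 3 were called as higher, but the list was split, with 4 positive and 3 negative fold changes. Its summed levels were 3664, 3607 and 3501 CPM in NM1 KO and 3436, 2112 and 3313 CPM in WT. Called as lower were 2 of 6 mesothelium markers (6 negative fold changes) and 1 of 7 pericyte and smooth muscle markers (6 negative). Of 8 T and NK cell markers edgeR called 0 (4 had an unadjusted p under 0.05), DESeq2 1 and limma-voom 1. All 8 fold changes were positive, with a median of 1.41. Their sums were 36.8, 9.30 and 38.2 CPM in NM1 KO replicates 1 to 3 and 10.3, 14.0 and 15.1 CPM in WT, so NM1 KO replicate 2 was the lowest. Of 8 proliferation markers (8 positive, median 0.82) edgeR called 0 (4 had an unadjusted p under 0.05), DESeq2 3 and limma-voom 1. Of 5 B cell markers (5 positive) edgeR, DESeq2 and limma-voom each called 0, and 0 had an unadjusted p under 0.05. Their part in the levels of the chromatin genes was not tested. All members share these libraries.

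Leaving out 1 library at a time changed the calls. Without NM1 KO replicate 2, 11 members were called higher (Kmt2c, Setd2, Kdm3a, Kdm5a, Kat6a, Hdac9, Smarcad1, Arid2, Arid5b, Chd6 and Chd9) and 4 lower (Kmt2d, Hdac10, Hdac3 and Hdac7), and with the GC and length trend also removed 1 was higher (Kat6a) and 2 lower (Kmt2d and Setd5), against 3.15% of all genes. In that fit without replicate 2 and with no trend removed, Kmt2d, Hdac10 and Arid5b stayed called, with adjusted p = 0.0293, 0.0258 and 0.0379. Without any other library none of the 3 was called: the adjusted p was 0.0873 to 0.132 for Kmt2d, 0.0718 to 0.111 for Hdac10 and 0.0627 to 0.130 for Arid5b. The share of all genes called was 1.51%, 10.2% and 0.0304% without NM1 KO replicates 1 to 3, and 0.225%, 0.0247% and 0.00608% without WT replicates 1 to 3, against 4.25% with all libraries. Exons of 9 members share more than 10% of their bases with another gene, Setd1a (52.3%) and Smarcd3 (48.2%) the most, and without a stated strand setting reads in these bases cannot be assigned.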

How the data were processed

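RNA-seq counts of 3 NM1 KO and 3 WT libraries of mouse visceral fat were analysed. The authors deposited raw whole-number counts per Ensembl gene, 1 table per library, without normalization. Per the submitters' processing notes reads were handled with HISAT2 2.0.4 and HTSeq, with Trimmomatic 0.36, SAMtools 0.1.19 and FastQC also named, on GRCm38. The sources used here state neither the annotation nor the strand option used for counting. Of 46603 identifiers 46005 matched GENCODE M21, which gave symbols, GC content and exonic length.

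Samples were grouped by labelled genotype. Genes were filtered with filterByExpr and tested with edgeR 4.0.16 (R 4.3.3): TMM size factors, robust quasi-likelihood fit, genotype as the only term, two-sided, Benjamini-Hochberg adjustment over all 15828 genes, threshold 0.05. Each SE was obtained as the log2 fold change over the root of its F statistic. CPM used TMM-scaled totals. The common biological coefficient of variation was 25.3%. The removal of the GC and length trend enters each library's smooth trend (natural splines, 5 degrees of freedom) as an offset. Alternatives were other size factors, filters and dispersion, length or GC offsets alone, protein-coding genes only, DESeq2 1.42.0, limma-voom (limma 3.58.1), a replicate block and each library left out.

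Genes named were Kmt2d, every called member and, per family, the smallest p, both extremes of fold change and the highest CPM per kb, and per context list the 2 smallest p, though only part of the context genes so selected are printed. Others, among them Kmt2a, Kmt2b, Hdac7, Kdm5b, Arid4b and Chd1, were named after their values were seen. A gene that the rule selects in the Brd family is not reported here. Members and lists were chosen with earlier results of these data known.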

Additional observations from a re-analysis of the deposited data

How the results depend on the processing

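The number of members called depended on the test. DESeq2 called 12 higher and 7 lower (2239 genes in all) and limma-voom with quality weights 10 and 5 (1605 in all). The number called higher was 5 with no filter on low counts, 2 with non-robust dispersion, and 0 with the GC and length offset and with the length offset. Leaving out each library in turn gave 0 to 11 called higher and 0 to 4 called lower, with 1 to 1654 genes in all. The upper ends of these ranges came without NM1 KO replicate 2. The cause was not tested.

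The replicate numbers were not taken to pair the samples. Deviations of same-numbered libraries correlated at -0.039, -0.014 and 0.245, and those of differently numbered libraries at -0.107 to 0.115. The value of 0.245, for replicate 3, was the highest of these, so the correlations alone do not settle the pairing. With the replicate block 0 members were called higher and 0 lower (336 genes in all), and with the replicate block with GC and length offset 0 and 1.

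The median over the members was -0.050 with the GC and length offset, -0.079 with the length offset, -0.058 with the block and offset, -0.040 with the offset without NM1 KO replicate 2 (an alternative chosen after seeing the data), and 0.0058 to 0.070 with a library left out. Family medians moved by less than their spread in 151 of 189 cases. The spread was the SD of the family's median between libraries of a group, pooled over the groups. It was wide in some families: the Arid median of 0.21 became 0.018 with the GC and length offset and still counted as kept. The count therefore does not show that the medians were stable. With the GC and length offset they were -0.12 (Kmt), -0.026 (Kdm), -0.018 (Kat), -0.17 (Hdac) and -0.21 (Brd). With the length offset they were -0.047 (Kmt), -0.25 (Setd), -0.042 (Kdm), -0.18 (Hdac), -0.19 (Smarc), 0.036 (Chd) and -0.26 (Brd). With the block and offset they were -0.12 (Kmt), -0.029 (Kdm), -0.018 (Kat), -0.17 (Hdac), -0.099 (Arid), 0.15 (Chd) and -0.21 (Brd), and with the offset without NM1 KO replicate 2 -0.013 (Kdm), -0.054 (Kat), -0.20 (Hdac) and 0.16 (Chd). With the GC offset they were 0.059 (Kdm), -0.17 (Hdac) and -0.053 (Smarc), with upper-quartile factors 0.14 (Kdm) and -0.14 (Smarc), with library totals alone -0.13 (Smarc), and with limma-voom -0.14 (Hdac). With a library left out they ran from 0.042 to 0.26 (Kmt), -0.15 to -0.052 (Setd), 0.037 to 0.18 (Kdm), -0.019 to 0.11 (Kat), -0.14 to -0.0046 (Hdac), -0.13 to -0.084 (Smarc), -0.14 to 0.47 (Arid), 0.20 to 0.32 (Chd) and -0.17 to -0.10 (Brd).

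Under 21 alternatives the 29 named members had 609 values. Of these, 26 lost a call, all of the 3 called genes, and 33 values of other genes gained one. A separate 26 values in 8 genes changed sign, all of genes not called. Kat7 was -0.012 with upper-quartile factors, -0.0034 with library totals, -0.031 with limma-voom, -0.018 with the GC and length offset and with the block and offset, -0.0040 with the length offset, -0.035 with the GC offset, and -0.055, -0.0040 and -0.054 without NM1 KO replicate 2, without WT replicate 1, and with the offset without NM1 KO replicate 2 (-0.055 to 0.073 over the libraries left out). Under the GC and length offset, the GC offset, the block and offset, and the offset without NM1 KO replicate 2, in that order, Brd7 was -0.044, -0.084, -0.041 and -0.040, Kdm4b 0.048, 0.034, 0.041 and 0.00097, and Setd3 -0.0046, -0.014, -0.0094 and -0.094. Brd2 was 0.023 with the GC offset, Chd1l 0.019 with the offset without NM1 KO replicate 2, Kmt5a -0.026 without WT replicate 3 (-0.026 to 0.22 over the libraries left out), and Setd2 -0.00023 with the block and offset. At a common variation of 25.3% and 3 libraries per group, small fold changes are not detectable.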
